A study of Mus musculus with 6 samples.

Results

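The inner mitochondrial membrane is closed to most metabolites, and carriers of the SLC25 family move them across it. Their best known members exchange ADP for ATP, import phosphate, bring in acylcarnitines for beta-oxidation and carry the malate, aspartate and glutamate of the redox shuttle. Uncoupling proteins belong to the same family, and Ucp3 is known in heart and muscle as a gene that responds to fatty acids. The genes described here are the protein-coding genes named Slc25a followed by a number, with Ucp2 and Ucp3, chosen by symbol alone. The rule found 48 of the 23808 genes in the table, 46 Slc25a genes and 2 uncoupling protein genes. It leaves out Ucp1 and the pseudogene Slc25a5-ps.

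The samples were hearts of wild-type female mice, with 3 mRNA-seq libraries from mice on normal chow (NC) and 3 from mice on a high-fat diet (HFD), each diet given between week 4 and week 12 of age. The part of the heart that was taken, the strain and the make-up of the diets are not stated in the labels, nor whether each library is a separate animal, so p-values measure only the spread between these libraries. Values are FPKM, a fragment count scaled by gene length and by library total, which allow levels of different genes to be compared per length. The depth of the libraries is unknown. Diets were compared with limma on log2(FPKM + 1), HFD minus NC, and this scale understates the change of low genes.

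Of the 48 genes, 40 reached a mean of 1 FPKM and entered the test with 11456 genes in all. None of the 40 passed an adjusted p of 0.05 (smallest limma adjusted p = 0.99982), and neither did any of the 11456 (0%). The log2 fold change was above 0 in 20 of the 40 genes and below 0 in the other 20, with a median of 0.01, against 46.9% above 0 and a median of −0.02 over all tested genes. At an unadjusted p of 0.05 there was 1 of the 40, Slc25a34, against 3.62% of all genes tested. All 3 HFD values lay above all 3 NC values in 3 genes, Slc25a34, Slc25a33 and Slc25a24, where 3.25% of all genes tested did so. All HFD values lay below all NC values in 0 of the 40, against 4.88% of all genes. Standard errors of the 40 differences ran from 0.19 to 0.41 on the log2 scale, and 27 of the 40 differences were under 0.25 in size.

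Some facts of the whole series touch these values. In all, 6 genes were listed at 0 in some libraries and above 100 FPKM in the others. The mitochondrially encoded mt-Co2, mt-Nd4, mt-Cytb and mt-Nd4l and the gene Gm28661 were at 0 in HFD 1 alone, and Gm28437 was at 0 in NC 2, HFD 1 and HFD 2 and between 59858 and 62160 FPKM in the other libraries. The summed FPKM of HFD 1 was 576334, against 687877 to 739406 in the other libraries. Cardiomyocyte markers were abundant in all libraries, with sums of 14849 to 16924 FPKM in NC hearts and 11519 to 15013 FPKM in HFD hearts. Sums of 4 atrial markers ran from 344 to 13670 FPKM in NC hearts and from 428 to 6945 FPKM in HFD hearts, so that the libraries differ widely in atrial transcripts within each diet. The sums were 291 to 530 and 219 to 434 FPKM for the 5 fibroblast markers, and 134 to 211 and 178 to 213 FPKM for the 5 endothelial markers, on NC and HFD. All 5 fibroblast markers had log2 fold changes below 0 (median −0.80), 3 of them at an unadjusted p under 0.05, and 0 passed the adjusted threshold. Col3a1, a collagen gene, was at 80.5, 54.1 and 92.0 FPKM in NC hearts and 29.4, 18.7 and 38.4 FPKM in HFD hearts, with all HFD values below all NC values (log2 fold change −1.38, SE 0.28, limma adjusted p = 0.352). All 5 endothelial markers were above 0 (median 0.14), and 0 passed. The part of these cell types in the carrier values was not tested. In whole tissue, fewer cells of a type and less RNA per cell cannot be told apart.

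Levels spanned more than the difference between the diets in any gene. Means over the 6 libraries were above 100 FPKM in 4 genes, between 10 and 100 FPKM in 13, between 1 and 10 FPKM in 23 and under 1 FPKM in 8. Mean levels were highest in Slc25a4 (1933 FPKM), followed among the genes reported here by Slc25a3 (658), Slc25a5 (198), Slc25a11 (143), Ucp2 (71.6), Slc25a39 (54.0), Slc25a20 (45.3), Slc25a12 (30.5), Slc25a34 (20.8), Slc25a23 (17.7) and Ucp3 (13.8). Among the 39 neighbouring pairs in the order of levels, only 6 were in the same order in all 6 libraries. They were the steps from Slc25a4 to Slc25a3, to Slc25a5, to Slc25a11 and to Ucp2, and those from Slc25a12 to Slc25a34 and from Slc25a37 to Slc25a45. Neighbours elsewhere in the order were not separated beyond the spread between libraries.

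**Figure D1:**
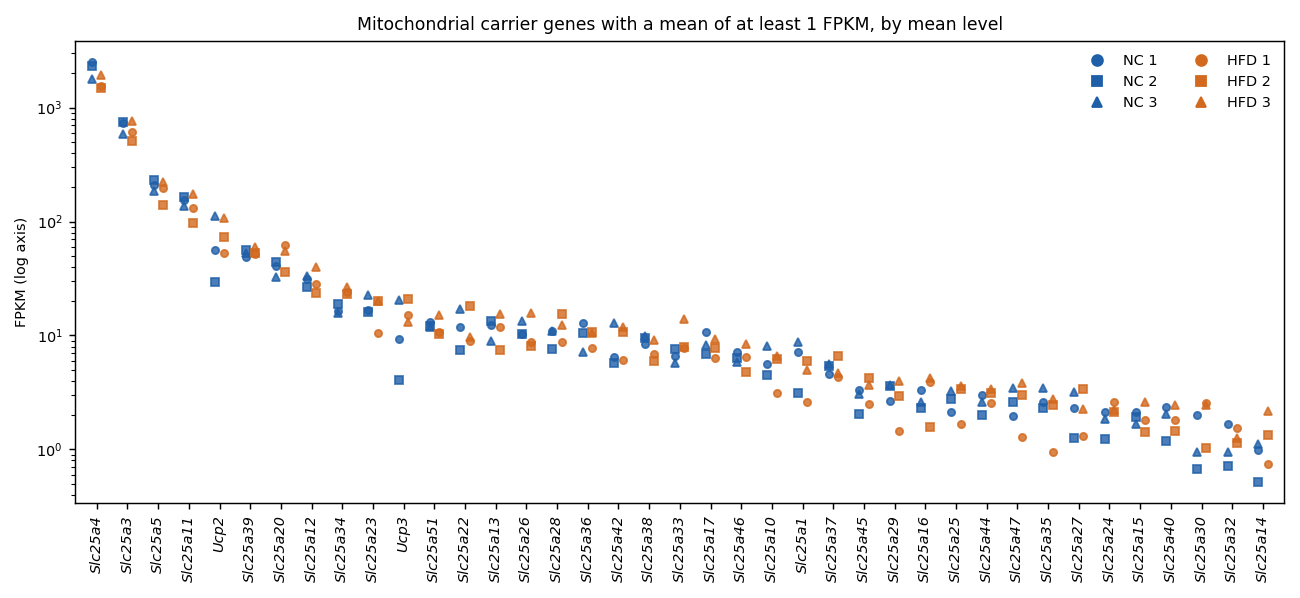
FPKM (log axis) of 39 tested carrier genes in each library, ordered by mean level; blue marks are NC, orange marks HFD, and circle, square and triangle are libraries 1, 2 and 3. Slc25a4 and Slc25a3 stand above the rest, and the marks of the diets interleave in nearly every column, with Slc25a34, Slc25a33 and Slc25a24 as the genes whose HFD marks are all above their NC marks.

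The ADP/ATP and phosphate carriers supply ATP synthase with its substrates and export the product. Slc25a4 encodes the adenine nucleotide translocase of heart and muscle and lies on chromosome 8 from 46206797 to 46211284 on the minus strand (mm10). It was at 2527, 2318 and 1771 FPKM in NC hearts and at 1556, 1488 and 1942 FPKM in HFD hearts. NC 1 and NC 2 were above all HFD libraries, whereas NC 3 lay below HFD 3. The means were 2205 ± 391 and 1662 ± 245 FPKM (SD, n = 3 each), which gave a log2 fold change of −0.40 (SE 0.21, limma adjusted p = 0.99982). Quantile normalization brought this difference to −0.233, the largest shift among the scalings.

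Slc25a3, the phosphate carrier of mitochondria, was at 729, 751 and 582 FPKM in NC hearts and at 614, 507 and 764 FPKM in HFD hearts. The groups overlapped, and HFD 3 was the highest of the 6 libraries while HFD 2 was the lowest (log2 fold change −0.14, SE 0.22, limma adjusted p = 0.99982). Slc25a5, the more widely expressed adenine nucleotide translocase, was at 211, 231 and 186 FPKM in NC hearts and at 198, 141 and 221 FPKM in HFD hearts, again with HFD 2 lowest (log2 fold change −0.18, SE 0.22, limma adjusted p = 0.99982). Without HFD 2 the differences turned to 0.0047 for Slc25a3 and 0.0076 for Slc25a5. Slc25a31, the translocase isoform of the germ line, was low in all libraries, between 0.163 and 0.413 FPKM, and was not tested.

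Slc25a4 alone made up 62.9, 60.9 and 56.1% of the summed FPKM of the 48 genes in the NC libraries and 53.9, 55.8 and 53.4% in the HFD libraries. These shares did not overlap, but NC 3 and HFD 2 were 56.1% and 55.8%. The sum of the 48 genes was 4015, 3804 and 3157 FPKM in NC hearts and 2885, 2666 and 3634 FPKM in HFD hearts. HFD 3 lay above NC 3, so the sums overlapped, and the difference of means was −597 FPKM with an SD within diets of 478 FPKM. Slc25a4, Slc25a3, Slc25a5 and Slc25a11 together made up 83.8 to 91.0% of the sum in every library. The other 44 genes summed to 342 to 483 FPKM in NC hearts and 383 to 532 FPKM in HFD hearts. Of the 6 cardiomyocyte markers 5 had a log2 fold change below 0 (median −0.21), none was listed at 0, and 0 passed. All HFD values lay below all NC values in 2 of the 6, Tnni3 and Tnnt2, against 4.88% of all genes tested. Their log2 fold changes were −0.44 (SE 0.20) and −0.33 (SE 0.19), each with a limma adjusted p of 0.99982. The part of the cardiomyocyte markers in the Slc25a4 values was not tested.

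The ATP-Mg/phosphate carriers, which are regulated by calcium and adjust the adenine nucleotide pool of the matrix, were at lower levels. Of 3 tested, 2 had a log2 fold change above 0 and 0 passed. Slc25a24 was at 2.11, 1.24 and 1.85 FPKM in NC hearts and at 2.62, 2.12 and 2.21 FPKM in HFD hearts. The HFD values all lay above the NC values, though HFD 2 and NC 1 were nearly level (log2 fold change 0.29, SE 0.22, limma adjusted p = 0.99982, and 0.154 without NC 2). Slc25a23 was the most abundant of these carriers (18.5 ± 3.62 FPKM in NC hearts and 16.9 ± 5.46 FPKM in HFD hearts, SD, n = 3 each), and Slc25a25 was at 2.72 ± 0.563 and 2.88 ± 1.06 FPKM (SD, n = 3 each). Slc25a41 was listed at 0 in all 6 libraries.

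Uncoupling proteins and their near relatives had log2 fold changes above 0 in 5 of 5 genes, with a median of 0.38, and 0 of 5 passed the test. That of Slc25a27 was only 0.03 (SE 0.29), and that of Ucp2 changed sign when NC 2 was left out. Ucp3 had the largest difference of the 40 genes. It was at 9.40, 4.07 and 20.3 FPKM in NC hearts and at 15.1, 21.0 and 13.0 FPKM in HFD hearts. The NC values spanned a wide range, with NC 2 lowest of all libraries and NC 3 within the HFD values, so the groups overlapped. The means were 11.3 ± 8.28 and 16.4 ± 4.12 FPKM (SD, n = 3 each), which gave a log2 fold change of 0.72 (SE 0.41, limma adjusted p = 0.99982). It ranged from 0.197 without NC 2 to 1.23 without NC 3.

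Ucp2, which in other tissues is known from macrophages and lymphoid cells, was at 56.8, 29.2 and 111 FPKM in NC hearts and at 52.6, 73.1 and 107 FPKM in HFD hearts. NC 2 was again the lowest library and NC 3 the highest, with the HFD values between them (log2 fold change 0.38, SE 0.40, limma adjusted p = 0.99982). Without NC 2 the difference turned to −0.0915, and without NC 3 it was 0.851. NC 2 also had the lowest and NC 3 the highest sum of atrial markers (344 and 13670 FPKM). In HFD hearts these sums were 1530, 428 and 6945 FPKM. HFD 2 had the lowest sum but the highest Ucp3 of the HFD libraries, and HFD 3 the highest sum but the lowest Ucp3. Ucp2 was highest in HFD 3 and lowest in HFD 1 among the HFD libraries. The part of atrial transcripts in the Ucp2 and Ucp3 values was not tested. The 6 macrophage markers all had log2 fold changes below 0 (median −0.54), and 0 passed the adjusted threshold. At an unadjusted limma p under 0.05 there were 3 of the 6, against 3.62% of all genes tested. All HFD values lay below all NC values in 2 of the 6, C1qa and Cd68, against 4.88% of all genes. Sums of the macrophage markers were 103 to 136 FPKM in NC hearts and 68.4 to 99.0 FPKM in HFD hearts. For Ucp2, which had a log2 fold change above 0, their part was not tested either. Of 6 skeletal muscle markers 5 were in the table, with sums of 1.08 to 4.21 FPKM in NC hearts and 1.05 to 3.44 FPKM in HFD hearts, and Myh1, Myh2 and Actn3 were listed at 0 in some libraries.

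Ucp3 and Ucp2 are neighbours on chromosome 7, on the plus strand, from 100472990 to 100486432 and from 100493337 to 100502020 (mm10), with 6904 bases between them. Exons of Ucp2 overlap those of Dnajb13 on the other strand, and no source used here gives the strand setting of the counting, so the reads of these genes may not be told apart. The relatives Slc25a27, Slc25a14 and Slc25a30 were at means of 2.28, 1.15 and 1.61 FPKM. Slc25a30 was at 1.999, 0.677 and 0.947 FPKM in NC hearts and at 2.56, 1.02 and 2.47 FPKM in HFD hearts, with HFD 2 below NC 1. Its log2 fold change was 0.45 (SE 0.29, limma adjusted p = 0.99982), from 0.274 without NC 2 to 0.716 without HFD 2, and was 0.722 with a pseudocount of 0.1.

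**Figure D2:**
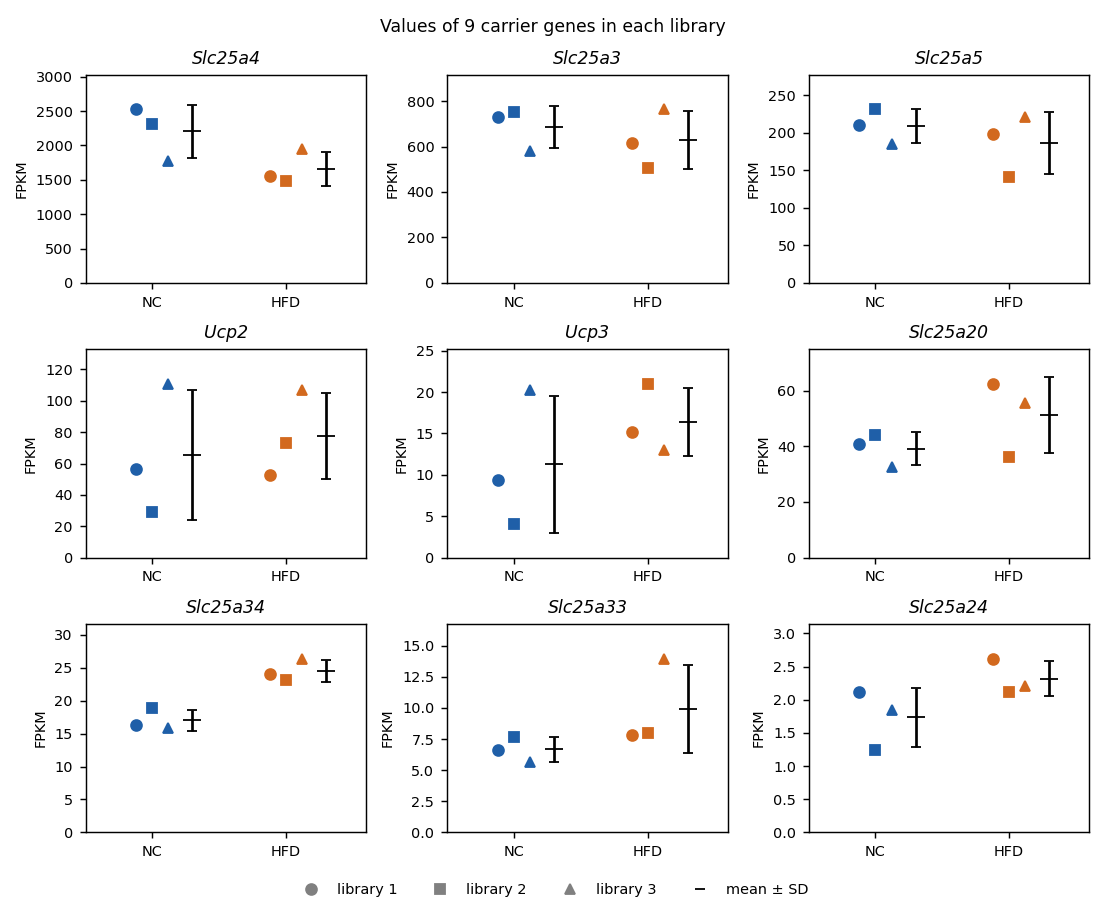
FPKM of 9 carrier genes in the NC (blue) and HFD (orange) libraries; circle, square and triangle are libraries 1, 2 and 3, and the black bars are the mean ± SD (n = 3 each). Slc25a34 shows the clearest gap between the diets (15.9 to 18.8 against 23.1 to 26.4 FPKM), while Ucp2 and Ucp3 have a wide spread on NC.

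Promoter stretches of Ucp3 and Slc25a34 are shown because these genes had the largest difference and the smallest p of the family. They come from RefSeq (GRCm38.p6), run 5′ to 3′ on the strand of the gene and cover 160 to 11 bases before its start. Capitals mark AGGTCA or, for the opposite strand, TGACCT, the half-site that nuclear receptors such as the PPARs bind. The regions are chr7:100472831-100472980 on the plus strand and chr4:141623845-141623994 on the minus strand.
Ucp3: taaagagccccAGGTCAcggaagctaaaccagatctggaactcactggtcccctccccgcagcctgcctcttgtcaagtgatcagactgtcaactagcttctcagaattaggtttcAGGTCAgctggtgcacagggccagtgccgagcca
Slc25a34: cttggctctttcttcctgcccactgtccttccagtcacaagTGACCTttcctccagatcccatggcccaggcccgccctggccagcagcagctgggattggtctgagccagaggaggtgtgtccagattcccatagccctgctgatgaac

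The half-site occurred at 149 and 44 bases before the start of Ucp3 and at 119 bases before that of Slc25a34. RefSeq promoters, from 250 bases before to 50 bases after a start, matched 37 of the 48 genes by symbol. On either strand, 5 of these 37 held the half-site (Ucp3, Slc25a34, Slc25a39, Slc25a45 and Slc25a47), which is 13.5%, against 18.1% of 27025 genes with a promoter. The longer letters TCAAGGTCA, known for the estrogen-related receptors and overlapping the half-site, were in 0 of the 37 and in 0.466% of all genes. The direct repeat of the half-site with a spacer of 1 base was in 0 of the 37 and in 0.0481% of all. The E-box CACGTG was in 7 of the 37 (18.9%, against 8.09% of all), among them Slc25a33, and the ETS site CCGGAAG was in 6 (16.2%, against 9.93% of all), among them Slc25a4, Slc25a3 and Slc25a20. These are matches of letters only.

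Slc25a34, a carrier to which no substrate is assigned here, lies on chromosome 4 from 141618824 to 141623821 on the minus strand (mm10). It was at 16.3, 18.8 and 15.9 FPKM in NC hearts and at 24.1, 23.1 and 26.4 FPKM in HFD hearts. The lowest HFD value was above the highest NC value, and each diet kept within a narrow range. The means were 17.0 ± 1.59 and 24.5 ± 1.67 FPKM (SD, n = 3 each), which gave a log2 fold change of 0.50 (SE 0.20, unadjusted p = 0.0263, limma adjusted p = 0.99982). Leaving out each library in turn gave 0.453 to 0.575. Slc25a35, its close relative, went the other way with groups that overlapped, at 2.60, 2.32 and 3.49 FPKM in NC hearts and 0.954, 2.43 and 2.78 FPKM in HFD hearts (log2 fold change −0.36, SE 0.28, limma adjusted p = 0.99982). Its difference rested largely on HFD 1 and was −0.066 without that library. Exons of Slc25a35 overlap those of Rangrf on the other strand. Slc25a11 shares such an overlap with Rnf167. Slc25a10, Slc25a23, Slc25a25, Slc25a26, Slc25a37 and Slc25a46 also have exons that overlap a gene on the other strand.

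Slc25a20 encodes the carnitine/acylcarnitine carrier, which brings long-chain acyl groups to beta-oxidation. It was at 40.8, 44.1 and 32.7 FPKM in NC hearts and at 62.4, 36.2 and 55.6 FPKM in HFD hearts. HFD 1 and HFD 3 stood above all NC libraries, while HFD 2 lay among them. The means were 39.2 ± 5.85 and 51.4 ± 13.6 FPKM (SD, n = 3 each), which gave a log2 fold change of 0.36 (SE 0.24, limma adjusted p = 0.99982), with 0.201 without HFD 1 and 0.586 without HFD 2. Of 12 genes listed for the carnitine system, 9 were tested. None of the 9 passed in either direction, 7 had a log2 fold change above 0, and the median was 0.24. The muscle carnitine palmitoyltransferase gene Cpt1b, which makes the acylcarnitines, was at 66.0, 43.9 and 47.7 FPKM in NC hearts and at 54.2, 78.6 and 101 FPKM in HFD hearts, with HFD 1 below NC 1. Cpt2, which acts after the carrier, was at 68.1, 79.9 and 65.3 FPKM in NC hearts and at 79.7, 87.3 and 85.2 FPKM in HFD hearts, where HFD 1 was just below NC 2. HFD 2, the lowest HFD library for Slc25a20, was the highest for Cpt2.

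Carriers of dicarboxylates and citrate had log2 fold changes below 0 in 3 of 3 tested genes (median −0.20), and 0 passed. Slc25a34 and Slc25a35 were first placed in this class and were moved out after their values had been seen, since their substrates are uncertain. With them, 1 of 5 was above 0. Slc25a11, the oxoglutarate/malate carrier of the malate-aspartate shuttle, was at 154, 163 and 136 FPKM in NC hearts and at 133, 97.5 and 176 FPKM in HFD hearts. HFD 3 was the highest and HFD 2 the lowest library, so the diets overlapped. Slc25a1, the citrate carrier, was at 7.09, 3.13 and 8.82 FPKM in NC hearts and at 2.63, 6.002 and 5.01 FPKM in HFD hearts. Its log2 fold change of −0.37 (SE 0.34, limma adjusted p = 0.99982) went from −0.0882 without HFD 1 to −0.738 without NC 2. Slc25a10, the dicarboxylate carrier, was at 6.04 ± 1.81 and 5.33 ± 1.95 FPKM (SD, n = 3 each). Slc25a21, the oxodicarboxylate carrier, did not exceed 0.160 FPKM in any library.

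Slc25a12 and Slc25a13 encode the aspartate/glutamate carriers, the other arm of the malate-aspartate shuttle. Slc25a12 was at 30.4 ± 3.45 FPKM in NC hearts and 30.5 ± 8.64 FPKM in HFD hearts, and Slc25a13 at 11.5 ± 2.23 and 11.5 ± 3.94 FPKM (SD, n = 3 each). Both therefore had nearly equal means on the diets, with a wider spread on HFD, where HFD 2 was lowest and HFD 3 highest. Of the 4 enzymes of the shuttle, 0 passed and 4 had a log2 fold change below 0 (median −0.18). Mdh1, the cytosolic malate dehydrogenase gene, was at 759, 788 and 486 FPKM in NC hearts and 568, 301 and 683 FPKM in HFD hearts, and HFD 2 was the lowest library there too.

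Of the 7 tested amino acid carriers, 2 had a log2 fold change above 0 and 5 below 0 (median −0.02), and 0 passed. Slc25a38, which imports glycine for haem synthesis, was at 8.36, 9.51 and 9.90 FPKM in NC hearts and at 6.89, 6.02 and 9.06 FPKM in HFD hearts. HFD 1 and HFD 2 were below all NC libraries and HFD 3 was not (log2 fold change −0.32, SE 0.22, limma adjusted p = 0.99982, and −0.201 without HFD 2). Slc25a29, a carrier of basic amino acids, was at 2.66, 3.60 and 3.67 FPKM in NC hearts and at 1.44, 2.96 and 3.97 FPKM in HFD hearts, a log2 fold change of −0.24 (SE 0.28, limma adjusted p = 0.99982) that turned to 0.0511 without HFD 1. Slc25a22, a glutamate carrier, was at 11.8, 7.41 and 17.0 FPKM in NC hearts and 8.95, 18.2 and 9.73 FPKM in HFD hearts, with no separation of the diets. Its relative Slc25a18 did not exceed 0.325 FPKM, and the ornithine carrier gene Slc25a2 did not exceed 0.244 FPKM. Slc25a15, the other ornithine carrier, was at 1.91 ± 0.240 and 1.94 ± 0.593 FPKM, and Slc25a44, a carrier of branched-chain amino acids, at 2.53 ± 0.503 and 3.01 ± 0.426 FPKM (SD, n = 3 each).

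Iron enters the matrix through the mitoferrins Slc25a37 and Slc25a28, and glutathione through Slc25a39. With Slc25a40 these made 4 tested genes, 3 above 0 and 1 below (median 0.04), and 0 passed. Slc25a39 was the steadiest gene of the family, at 49.1, 55.8 and 53.4 FPKM in NC hearts and 52.3, 53.3 and 59.8 FPKM in HFD hearts, where the highest library was 1.22 times the lowest. Slc25a28, the mitoferrin of most tissues, was at 9.83 ± 1.97 and 12.2 ± 3.38 FPKM, and Slc25a37, the mitoferrin of erythroid cells, at 5.21 ± 0.569 and 5.17 ± 1.24 FPKM (SD, n = 3 each). The 6 erythroid markers summed to 2025 to 8294 FPKM in NC hearts and 1241 to 13372 FPKM in HFD hearts and none was listed at 0. NC 3 and HFD 3 had the lowest of these sums, and Slc25a37 was at 5.62 and 4.64 FPKM there. HFD 2 had the highest sum and also the highest Slc25a37, at 6.58 FPKM. HFD 1, with a sum of 7428 FPKM, had the lowest Slc25a37, at 4.28 FPKM. The part of erythroid cells in the Slc25a37 values was not tested. Of 14 genes of iron and haem handling, 14 were tested, 0 passed, and 10 had a log2 fold change below 0 (median −0.11). All HFD values lay below all NC values in Iscu, a scaffold gene of iron-sulphur cluster assembly.

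Carriers of nucleotides and cofactors had log2 fold changes above 0 in 4 and below 0 in 4 of 8 tested genes (median 0.05), and 0 passed. Slc25a33, a carrier of pyrimidine nucleotides, was at 6.66, 7.64 and 5.69 FPKM in NC hearts and at 7.80, 7.998 and 14.0 FPKM in HFD hearts. HFD 1 and HFD 2 were only slightly above NC 2, and HFD 3 was far above the rest. The means were 6.66 ± 0.976 and 9.92 ± 3.50 FPKM (SD, n = 3 each), and the log2 fold change of 0.47 (SE 0.25, limma adjusted p = 0.99982) was 0.223 without HFD 3. Exons of Slc25a33 overlap those of the antisense gene Gm13068. Slc25a36, the related carrier, was at 10.2 ± 2.90 and 9.70 ± 1.71 FPKM (SD, n = 3 each).

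Slc25a51, the NAD carrier, was at 12.3 ± 0.628 and 12.1 ± 2.74 FPKM, and Slc25a42, a carrier of coenzyme A, at 8.31 ± 3.87 and 9.54 ± 3.06 FPKM (SD, n = 3 each). Slc25a26, which imports S-adenosylmethionine, was at 11.3 ± 1.80 and 10.9 ± 4.22 FPKM, and Slc25a17, a peroxisomal carrier, at 8.59 ± 1.95 and 7.81 ± 1.52 FPKM (SD, n = 3 each). Differences of the diets were smaller than the spread within a diet for all of these. Slc25a32, a carrier of folate and flavin, was low at a mean of 1.21 FPKM. The remaining tested genes, Slc25a46, Slc25a45, Slc25a16, Slc25a47 and Slc25a40, had means of 6.49, 3.13, 2.998, 2.70 and 1.88 FPKM, and their log2 fold changes lay between −0.03 and 0.23. Slc25a47 and Slc25a29 lie 162 bases apart on chromosome 12, on opposite strands. Slc25a53 was between 0.198 and 0.927 FPKM, Slc25a43 did not exceed 0.0858 FPKM, and Slc25a48 was listed above 0 in NC 2 alone.

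**Figure D3:**
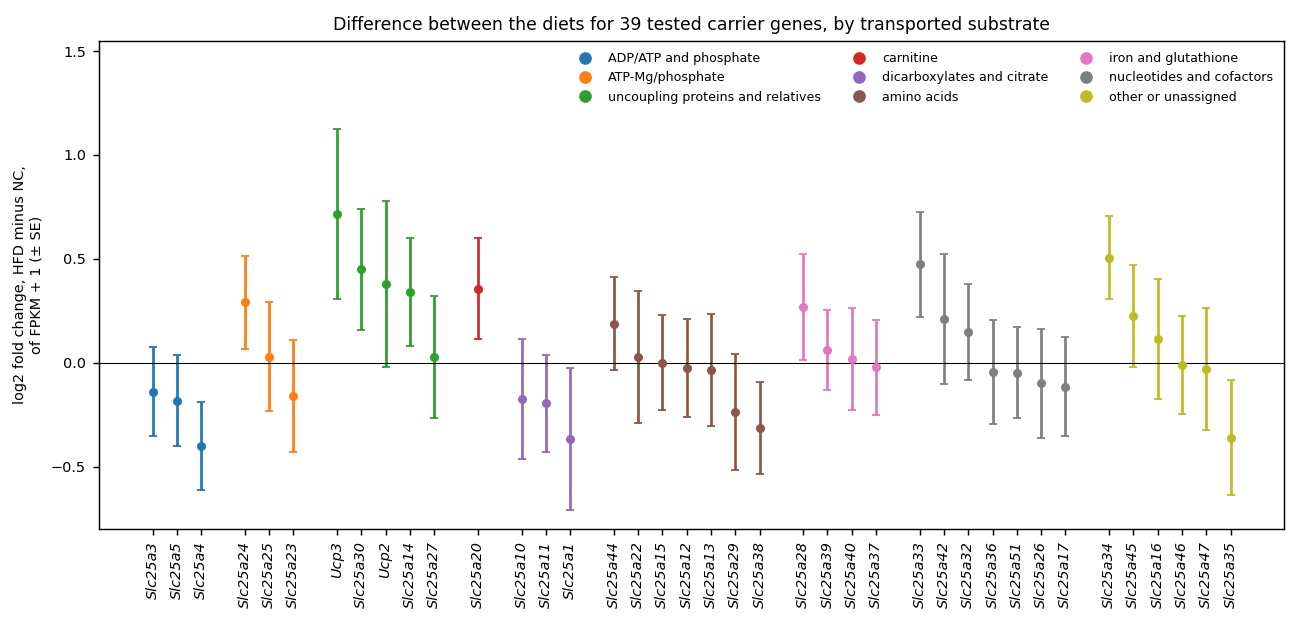
Log2 fold change (HFD minus NC, of FPKM + 1) of 39 tested genes with its standard error, grouped and coloured by transported substrate. The 3 ADP/ATP and phosphate carriers and the 3 dicarboxylate and citrate carriers lie below 0. The 5 uncoupling proteins and relatives lie above 0, with Slc25a27 at only 0.03, and no gene passed an adjusted p of 0.05.

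Pairs of carriers, most with related substrates, were compared within each library by the log2 ratio of FPKM + 1. The scaling of a library largely drops out where both genes are well above 1 FPKM. It does not for the pair of Slc25a22 and Slc25a18, since Slc25a18 did not exceed 0.325 FPKM. Permutation p-values are for this log2 ratio, and shares in percent are of plain FPKM. The pair of Slc25a20 and Slc25a29 joins genes of different substrate classes. Across 10 pairs the log2 ratio of the diets overlapped in all 10, and the smallest exact two-sided permutation p was 0.2 (adjusted over the pairs, 0.75), where 0.1 is the smallest that 3 against 3 libraries allow. Slc25a4 held 90.5 to 92.3% of the summed FPKM of Slc25a4 and Slc25a5 on NC and 88.7 to 91.4% on HFD. Slc25a12 held 66.8 to 78.8% of the aspartate/glutamate carrier pair on NC and 70.4 to 75.9% on HFD. Slc25a22 held at least 98.1% of the glutamate carrier pair in every library. Slc25a39 held at least 95.4% of its pair with Slc25a40.

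Ucp3 held 14.2, 12.2 and 15.5% of the Ucp3 and Ucp2 sum on NC and 22.3, 22.3 and 10.8% on HFD. The NC libraries were close together although the levels of both genes differed widely between them, and HFD 3 lay below the NC libraries while HFD 1 and HFD 2 lay above (exact permutation p = 0.4). Slc25a33 held 34.0, 42.2 and 44.3% of its pair with Slc25a36 on NC and 50.2, 42.5 and 57.0% on HFD, where HFD 2 was below NC 3 (exact permutation p = 0.2). Slc25a37 held 29.5 to 41.9% of the mitoferrin pair on NC and 27.3 to 32.9% on HFD (exact permutation p = 0.2).

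**Figure D4:**
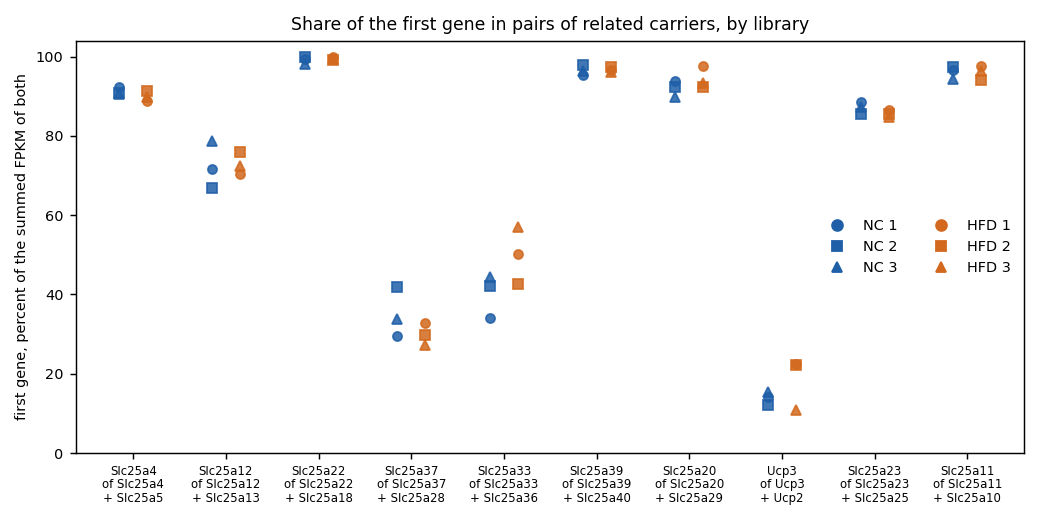
Share of the first-named gene in the summed FPKM of each of 10 pairs of related carriers, in percent, for the NC (blue) and HFD (orange) libraries 1, 2 and 3 (circle, square, triangle). Slc25a4, Slc25a22, Slc25a39, Slc25a20 and Slc25a11 hold nearly all of their pairs in every library, and the marks of the diets interleave in most pairs, the Ucp3 share being 12.2 to 15.5% on NC and 10.8 to 22.3% on HFD.

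The highest and lowest values of the family were spread unevenly over the libraries. HFD 3 was the highest of the 6 libraries in 18 of the 40 genes (45%, against 34.5% of all genes tested) and the lowest in 0 (against 5.30% of all). NC 2 was the lowest in 13 (32.5%, against 20.8%), HFD 2 in 12 (30%, against 23.1%) and HFD 1 in 10 (25%, against 33.0%). The order of libraries therefore partly followed that over all genes. HFD 2 was the lowest library for Slc25a4, Slc25a3, Slc25a5, Slc25a11, Slc25a12 and Slc25a13, and NC 2 for Ucp2 and Ucp3.

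Partners of the carriers were read from lists of genes of the same processes. Of 11 tested partners of ATP export, 0 passed in either direction and 9 had a log2 fold change below 0 (median −0.18). Ckmt2, the mitochondrial creatine kinase gene of muscle, was at 1011, 1047 and 649 FPKM in NC hearts and at 823, 713 and 798 FPKM in HFD hearts, with NC 3 below all HFD libraries. Vdac1, the main channel of the outer membrane, was at 170, 153 and 153 FPKM in NC hearts and at 169, 86.8 and 238 FPKM in HFD hearts, with HFD 2 lowest and HFD 3 highest as for the phosphate carrier. Of 17 tested mitochondrial transporters outside the naming rule, 0 passed, 9 were above 0 and 8 below (median 0.01). Their most abundant members, the pyruvate carrier genes Mpc1 and Mpc2, were at 352, 361 and 270 and at 259, 290 and 246 FPKM in NC hearts, and at 375, 204 and 337 and at 248, 212 and 266 FPKM in HFD hearts.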

How the data were processed

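The deposited table holds 1 FPKM value for every gene in every library, as calculated by the authors. The submitters' processing notes list the build mm10 and, with no roles, DESeq2 1.18.1, FastQC 0.11.9, HISAT2 2.2.1, HTSeq 0.13.5, R 3.4.1 and Trimmomatic 0.38. Which program made the FPKM values is not given in the sources here. Gene identifiers were matched to symbols for 23718 of 23808 genes and to GENCODE M21 positions. Low values showed no steps of 1 read. For values below 0.3 FPKM, the commonest ratio to NC 1 (± 0.02 on the log2 scale) took in 2.40 to 4.95% of genes, so no counts were recovered and depth is unknown. Genes that reached a mean of 1 FPKM were tested with limma 3.58.1 in R 4.3.3 (log2(FPKM + 1), eBayes with trend, two-sided, Benjamini-Hochberg over all 11456), after a check on simulated data. Genes given in full were Ucp2, Ucp3, Slc25a3, Slc25a4, Slc25a5, Slc25a20, those whose diets did not overlap and the 5 with the smallest p in each direction. The most abundant were named with their level. Some items are not reported here. Others, and the genes named from the partner lists, were chosen after their values were seen. The genes, substrate classes, partner lists and marker lists were chosen with earlier results of these data known, and 4 genes (Slc25a16, Slc25a34, Slc25a35 and Slc25a45) were moved to the class without an assigned substrate after their values had been seen, because their substrates are uncertain. Figures were drawn with matplotlib 3.10.9.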

Additional observations from a re-analysis of the deposited data

How the results depend on the processing

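The count of carrier genes past the threshold was 0 in all 15 alternatives, which covered the pseudocount, filters, scalings, the limma settings, the replicate block and each library left out. Over all 11456 genes the count was 0 (415 at an unadjusted p of 0.05), and it differed from 0 in 2 of 16 alternatives (those 15 and an adjusted p of 0.1), being 73 with the replicate number as a block and 0 to 1 when 1 library was left out. The 1 was Gm36956, without NC 2. Among the 73 was mt-Co2, which was listed at 0 in HFD 1 alone. Same-numbered libraries correlated at 0.193, 0.0864 and 0.275 in their deviations from the diet means, and not every library correlated best with its own number, so the numbers were not taken as pairs. The smallest carrier adjusted p with the block was 0.418 (limma). Carrier genes with a log2 fold change above 0 numbered 18 to 30 of 40 when 1 library was left out, with medians from −0.109 (without HFD 3) to 0.096 (without HFD 1). Leave-one-out ranges that crossed 0 were −0.290 to 0.0047 for Slc25a3, −0.316 to 0.0076 for Slc25a5, −0.0915 to 0.851 for Ucp2 and −0.464 to 0.0511 for Slc25a29. Directions of the other 10 genes given in full held in the alternatives run. The causes were not tested. Median-ratio scaling and quantile normalization moved the median over all genes from −0.02 to −0.01 and 0.01. Unknown depth limits genes near 1 FPKM most, and no counting error can be given.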

Other observations

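Ucp1, the uncoupling protein of brown fat, lies outside the naming rule. It was listed at 0 in NC 1, NC 2, NC 3 and HFD 2, was at 0.0653 FPKM in HFD 1 and at 4.11 FPKM in HFD 3. The 5 adipocyte markers summed to 60.5, 3.51 and 52.4 FPKM in NC hearts and 0.868, 12.5 and 47.5 FPKM in HFD hearts, so HFD 3 was not the only library with adipocyte transcripts. Of the other brown fat markers, Elovl3 was listed at 0 in HFD 3 and Dio2 was at 0.291 FPKM there. Cidea was at 17.1, 18.5 and 15.2 FPKM in NC hearts and 21.2, 22.0 and 21.5 FPKM in HFD hearts. Its HFD values all lay above its NC values, where 3.25% of all genes tested did so (log2 fold change 0.33, SE 0.20, limma adjusted p = 0.99982). The part of fat cells in these values was not tested.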
